A study of Mus musculus with 9 samples.

Results

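Mitosis, spindle and kinesin genes encode the proteins that start, drive and end cell division. The set was a list of 49 gene symbols covering the regulators of mitotic entry, the kinetochore, the chromosomal passenger complex, the spindle with its motor proteins, cytokinesis and anaphase. All 49 were among the 22524 genes counted in each library, and all 49 passed the filter on low counts that left 11560 genes for testing. The list was set by function and not by a threshold on these values, but it was chosen with earlier results of these data known.

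RNA sequencing was done on bone marrow-derived macrophages, primary cells grown from the bone marrow of C57BL/6 mice for 7 days in dishes. Of the 9 libraries 3 came from untreated control cells (labelled wild type), 3 from control cells treated for 6 h with lipopolysaccharide (LPS), and 3 from SRF-KO cells treated in the same way. Macrophages sense LPS, a molecule of the bacterial outer membrane, through Toll-like receptor 4. The transcription factor SRF (serum response factor) is best known for its cytoskeletal and immediate-early targets. The labels do not give the LPS dose, how Srf was deleted, the sex of the mice or whether libraries came from separate animals or cultures. Untreated SRF-KO cells were not analysed here, so what LPS does to SRF-KO cells was not measured. Because the source of the replicates is not stated, the p-values reflect only how far these libraries spread, which may be technical.

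In a dividing cell, cyclin B with the kinase CDK1 drives entry into mitosis, and the kinases of the Polo and Aurora families build the spindle. Kinetochores hold each chromosome to spindle microtubules, the spindle checkpoint delays anaphase until every chromosome is attached, and the anaphase-promoting complex then marks securin and the cyclins for destruction. Most of these genes are transcribed in the G2 and M phases of the cell cycle, through a promoter element called the CHR (cell cycle genes homology region), often together with CCAAT boxes, and through the transcription factors B-MYB and FOXM1 with the MuvB complex. Macrophages grown from bone marrow divide in response to the growth factor M-CSF, and LPS is known to stop their division. In bulk RNA, fewer dividing cells and less of these RNAs per dividing cell cannot be told apart.

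Promoter sequences were taken from RefSeq (build GRCm38.p6), from 250 bases before to 50 after the transcription start. Of the 49 genes 42 matched, with 44 promoter entries in all, and Aurkb, Ccna2, Cdc25c, Foxm1, Incenp, Kif20a and Tpx2 had none. Both strands were searched for the CHR as TTTGAA, for the CCAAT box as CCAAT, and for the CArG box, the element bound by SRF. The CHR letters were present in 36 of the 44 promoters (81.8%), against 17.9% of all 32851 promoters of this length. The CCAAT letters were present in 34 (77.3%), against 37.4% of all promoters, and 31 (70.5%) held both, against 6.95%. The CArG box was found in 2 of the 44 (4.55%, Ckap2l and Kif20b), against 1.63% of all promoters. Among promoters of kinesins of interphase and transport, which do not serve the mitotic spindle, the CHR letters were in 13.0% of 23. The CHR letters were more frequent in some lists of cell division genes. They were in 62.5% of 8 promoters of condensin genes and 47.8% of 23 of other mitotic regulators. They were also in 35.0% of 20 of DREAM, MuvB, RB and E2F genes and 28.1% of 32 of other kinetochore and centromere genes. Other such lists lay below the share of all promoters. They were at 16.7% of 6 for cohesin, 15.8% of 19 for the anaphase-promoting complex and 12.5% of 16 for centrioles and centrosomes. A match describes the letters in the window and does not show that a factor binds there.

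Of the 6 promoters shown here, 4 belong to genes that followed the common pattern of the set (Ccnb2, Plk1, Aspm and Kif11), 1 to the gene that ended highest above untreated cells (Ckap2l) and 1 to the gene that went the other way (Pttg1). Capitals mark the CHR, CCAAT or CArG letters on either strand, so that TTCAAA and ATTGG are the same motifs read on the opposite strand. The windows are Ccnb2 at chr9:70421505-70421804 (minus strand), Plk1 at chr7:122159185-122159484 (plus strand), Aspm at chr1:139454523-139454822 (plus strand), Kif11 at chr19:37376132-37376431 (plus strand), Ckap2l at chr2:129297163-129297462 (minus strand) and Pttg1 at chr11:43425932-43426231 (minus strand).
Ccnb2: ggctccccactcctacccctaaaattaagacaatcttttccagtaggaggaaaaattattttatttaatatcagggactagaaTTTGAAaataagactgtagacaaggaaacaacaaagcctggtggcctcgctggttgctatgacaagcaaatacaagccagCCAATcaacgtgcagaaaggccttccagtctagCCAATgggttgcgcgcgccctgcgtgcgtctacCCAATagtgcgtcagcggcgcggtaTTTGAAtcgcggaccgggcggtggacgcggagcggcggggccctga
Plk1: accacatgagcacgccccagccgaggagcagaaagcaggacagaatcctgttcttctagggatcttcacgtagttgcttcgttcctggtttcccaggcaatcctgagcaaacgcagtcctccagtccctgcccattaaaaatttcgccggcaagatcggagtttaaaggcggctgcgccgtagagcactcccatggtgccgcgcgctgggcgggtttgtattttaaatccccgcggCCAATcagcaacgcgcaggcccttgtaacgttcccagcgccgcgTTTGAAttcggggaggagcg
Aspm: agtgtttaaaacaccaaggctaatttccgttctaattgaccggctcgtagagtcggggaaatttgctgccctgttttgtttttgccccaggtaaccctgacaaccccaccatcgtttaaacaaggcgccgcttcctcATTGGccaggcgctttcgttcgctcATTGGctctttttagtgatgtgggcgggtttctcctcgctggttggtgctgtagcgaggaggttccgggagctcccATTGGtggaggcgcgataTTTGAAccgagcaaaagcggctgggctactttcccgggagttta
Kif11: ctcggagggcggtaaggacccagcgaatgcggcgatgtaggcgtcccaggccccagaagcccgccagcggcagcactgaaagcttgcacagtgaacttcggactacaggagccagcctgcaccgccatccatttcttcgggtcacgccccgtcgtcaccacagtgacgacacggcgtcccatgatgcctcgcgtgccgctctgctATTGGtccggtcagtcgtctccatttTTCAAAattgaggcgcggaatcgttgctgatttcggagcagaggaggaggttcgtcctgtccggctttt
Ckap2l: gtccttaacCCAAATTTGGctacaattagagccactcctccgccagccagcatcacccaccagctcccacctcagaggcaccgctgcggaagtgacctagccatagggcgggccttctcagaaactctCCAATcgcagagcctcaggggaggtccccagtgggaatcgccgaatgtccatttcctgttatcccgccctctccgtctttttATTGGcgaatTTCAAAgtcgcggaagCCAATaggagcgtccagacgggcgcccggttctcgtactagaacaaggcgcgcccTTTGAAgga
Pttg1: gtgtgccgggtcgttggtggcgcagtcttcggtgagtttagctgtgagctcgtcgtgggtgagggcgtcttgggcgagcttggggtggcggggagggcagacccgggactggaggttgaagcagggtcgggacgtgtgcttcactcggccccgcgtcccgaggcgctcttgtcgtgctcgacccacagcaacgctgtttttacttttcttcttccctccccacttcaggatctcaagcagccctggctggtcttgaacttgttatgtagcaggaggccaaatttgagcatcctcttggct

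The Ccnb2 promoter held 2 CHR and 3 CCAAT matches, with the later CHR starting at base 5 after the transcription start. The Plk1 and Kif11 promoters held 1 CHR and 1 CCAAT match each, and the Aspm promoter 1 CHR and 3 CCAAT matches. In Ckap2l there were 2 CHR, 3 CCAAT and 1 CArG match, the CArG box starting 241 bases before the start. The Pttg1 window held none of these letters, which says only that they are not in this window. It lies wholly inside the annotated span of the gene (chr11:43420250-43426251, minus strand). The bases before the start of that span were therefore not searched for Pttg1. The windows of Cdca3, Cdca8, Kif2c and Kif4 also lie wholly inside the annotated spans of their genes. They count in the motif shares above with the same limit.

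Nearly the whole set fell with LPS in control cells and was high in SRF-KO cells given LPS. The 49 genes together summed to between 1509 and 1609.8 CPM (counts per 1000000 counts, scaled by TMM to make libraries comparable) in untreated control, to between 409 and 419 CPM in control with LPS, and in SRF-KO with LPS to between 2943 and 3047 CPM. The 3 groups did not overlap. As a share of all counts before scaling, the set took 0.184%, 0.0335% and 0.311%, from between 5099 and 6473 reads per library in control with LPS and between 53736 and 77207 in SRF-KO with LPS. Library totals ranged from 15321839 to 24912173.

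In control cells 48 of the 49 genes fell with LPS and 1, Pttg1, rose, by edgeR's quasi-likelihood test (Benjamini-Hochberg adjusted p below 0.05 over all tested genes). Of all tested genes 81.7% passed in this comparison, 40.8% as lower, so the count is read beside that share and beside the sizes. The fall was at least 2-fold for 46 of the 49, against 17.4% of all tested genes. Their median log2 fold change was -2.88, with a range from -4.45 (Aspm) to 2.24 (Pttg1), while the median over all tested genes was -0.02. Libraries were separate between the groups for 48 of the 49, against 82.1% of all tested genes. Leaving Pttg1 out, the mean level with LPS was between 4.56% and 90.8% of the untreated level, with a median of 12.9%.

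Among cells given LPS, SRF-KO exceeded control for 48 of the 49 genes and was below it for Pttg1. In this comparison 77.0% of all tested genes passed, 39.1% as higher and 37.9% as lower. All 48 were at least 2-fold higher, against 13.9% of all tested genes, and 41 of them differed by at least 3 on the log2 scale. The median log2 fold change of the set was 3.61, with a range from -2.45 (Pttg1) to 5.21 (Aspm), and the median over all tested genes was 0.01. The libraries did not overlap for any of the 49, against 78.0% of all tested genes. Leaving Pttg1 out, the ratio of SRF-KO to control ran from 2.31 to 37.1 with a median of 12.3. The comparison shares its control libraries with the LPS comparison, so the opposite directions of both contrasts are not independent measurements.

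**Figure D1:**
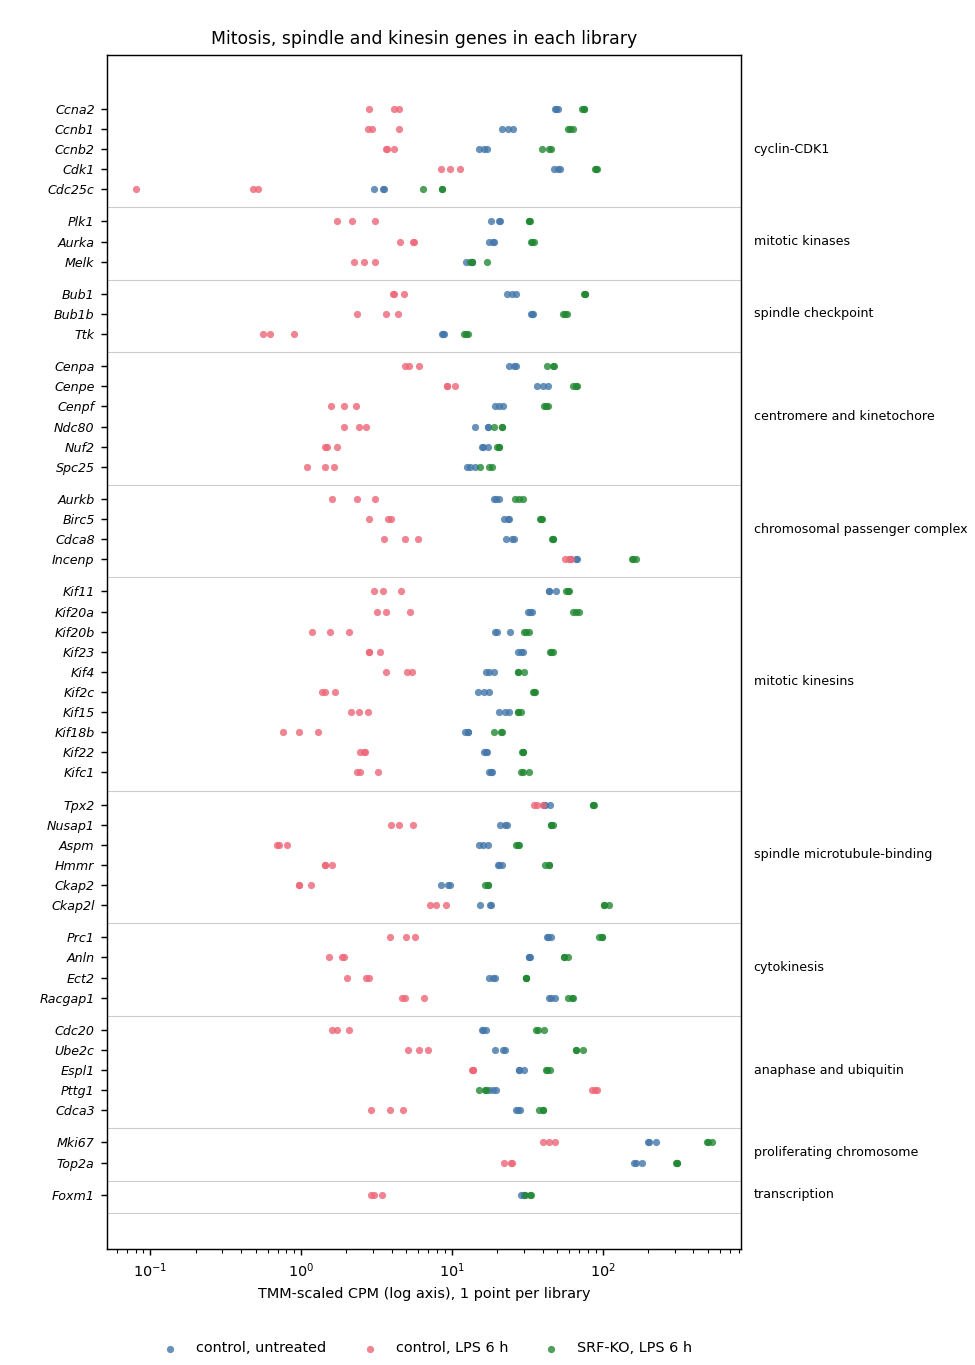
TMM-scaled CPM of the 49 genes in each of the 9 libraries on a log axis, 1 point per library, ordered by role from cyclins at the top to Foxm1 at the bottom. For 48 of the 49 genes all SRF-KO libraries lie to the right of all control libraries with LPS, and for Pttg1 they lie to the left.

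Several measured features of the libraries moved with genotype. Srf itself had 810, 975 and 884 counts in untreated control, 738, 799 and 900 in control with LPS and 34, 24 and 12 in the libraries labelled SRF-KO. The sum of 4 Y-linked genes was 7337 and 5991 counts in the control groups and 6 in SRF-KO, so the sex of the mice and the genotype cannot be told apart. All 8 macrophage markers were tested and they summed to 22928 to 23416 CPM in control with LPS and 24197 to 24421 in SRF-KO, while 3 of them were higher in SRF-KO (Cd14, Lyz2 and Csf1r, by 0.75, 0.46 and 0.36 on the log2 scale) and 5 were lower (Fcgr1, Mertk, Cd68, Adgre1 and Itgam, with log2 fold changes of -4.46, -2.33, -1.35, -1.12 and -0.45). Of 10 stem and progenitor markers only Cd34 passed the filter, and their sum was 1.05 to 1.38 CPM in control with LPS and 10.2 to 11.1 in SRF-KO. The granule protein genes Ctsg, Elane, Mpo and Prtn3 were at 0 in every library of both groups. Of 8 neutrophil markers 4 were tested, and their sum was 11.04 to 12.1 CPM in control with LPS and 87.4 to 99.7 in SRF-KO, led by Mmp8, with Ly6g and Retnlg at 0 in both groups. B cell markers summed to at most 1.45 CPM in the control libraries with LPS and 0.340 in SRF-KO. Hdc was the only mast and basophil marker tested and Pdgfrb the only stromal one. They measured 0.99 and 0.13 CPM in untreated control, 205 and 14.8 in control with LPS and 121 and 27.4 in SRF-KO. The other markers of these cells had at most 1 read in any library. These were Cpa3, Mcpt8, Ms4a2 and Tpsb2 for mast cells and basophils, and Col1a1, Col1a2, Col3a1 and Pdgfra for stroma. No T and NK cell, erythroid or dendritic marker passed the filter. The part of these differences in the mitotic gene values was not tested.

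The cyclin and CDK1 group starts mitosis. All 5 of its genes fell with LPS and all 5 were higher in SRF-KO than in control with LPS, with medians of -2.82 and 4.19 on the log2 scale. Cdk1, the kinase that drives mitotic entry, measured 52.1, 50.9 and 47.3 CPM in untreated control, 11.3, 8.503 and 9.70 in control with LPS and 90.7, 88.5 and 91.96 in SRF-KO. SRF-KO was 3.21 higher than control with LPS on the log2 scale (SE 0.072). Ccnb1, which encodes cyclin B1, measured 23.4, 25.6 and 21.5 CPM untreated, 4.43, 2.97 and 2.78 with LPS and 59.3, 63.2 and 60.6 in SRF-KO. Neither gene's groups overlapped, and in both the SRF-KO libraries were the highest. Ccna2 and Ccnb2, which encode cyclins A2 and B2, had log2 fold changes of -3.67 (SE 0.092) and -2.08 (SE 0.12) with LPS. They were 4.27 (SE 0.087) and 3.48 (SE 0.098) higher in SRF-KO than in control with LPS. Cdc25c, the phosphatase that activates CDK1, had the largest log2 difference of the group (4.37, SE 0.26) on the fewest reads. It measured 3.57, 3.06 and 3.52 CPM untreated, 0.0806, 0.484 and 0.517 with LPS and 8.61, 8.55 and 6.46 in SRF-KO, and 1 control library with LPS held 1 read. Its exons overlap those of Gm3550 on the opposite strand, and the strand setting of the counting is not given in the sources used here.

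All 3 mitotic kinase genes fell with LPS and were higher in SRF-KO than in control with LPS, and 2 of them were also higher than in untreated control. Plk1, the Polo-like kinase of centrosome maturation and spindle assembly, measured 18.1, 21.0 and 20.5 CPM untreated, 2.18, 1.73 and 3.10 with LPS and 32.7, 32.3 and 33.1 in SRF-KO. Aurka, the Aurora kinase of the spindle poles, measured 17.6, 19.0 and 18.7 CPM untreated, 4.51, 5.60 and 5.50 with LPS and 34.2, 33.3 and 34.9 in SRF-KO. Both Plk1 and Aurka were lowest in all 3 control libraries with LPS and highest in all 3 SRF-KO libraries. SRF-KO exceeded control with LPS by 3.79 (SE 0.12) for Plk1 and by 2.70 (SE 0.091) for Aurka on the log2 scale. Melk, a kinase of proliferating cells named outside the rule for named genes, differed by 2.43 (SE 0.14), and its SRF-KO libraries overlapped the untreated ones.

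The spindle checkpoint genes Bub1, Bub1b and Ttk fell by a median of 3.26 on the log2 scale with LPS and were a median of 4.12 higher in SRF-KO. Bub1, a checkpoint kinase of the kinetochore, measured 24.9, 26.6 and 23.3 CPM untreated, 4.11, 4.08 and 4.78 with LPS and 76.3, 77.0 and 75.1 in SRF-KO. Its SRF-KO libraries lay far above both control groups, and the difference from control with LPS was 4.13 (SE 0.083, adjusted p = 3.16e-33). Bub1b, which encodes the checkpoint protein BUBR1, was 3.99 (SE 0.098) higher. Ttk, the kinase that starts checkpoint signalling, was the lowest of the group, at 8.77 ± 0.135 CPM untreated, 0.697 ± 0.183 with LPS and 12.4 ± 0.396 in SRF-KO (SD, n = 3).

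All 6 centromere and kinetochore genes moved the same way, with medians of -3.02 with LPS and 3.37 in SRF-KO against control with LPS. Cenpf, a large kinetochore protein of G2 and M phase, measured 21.95, 19.2 and 20.6 CPM untreated, 1.93, 1.59 and 2.33 with LPS and 40.6, 41.9 and 43.5 in SRF-KO, the largest difference of the group (4.42, SE 0.11). Cenpe, a kinesin of the kinetochore that carries chromosomes to the spindle equator, measured 43.2, 40.4 and 36.9 CPM untreated, 9.27, 10.6 and 9.31 with LPS and 63.6, 67.3 and 67.0 in SRF-KO. No groups overlapped in either gene. Ndc80, the microtubule-binding subunit of the outer kinetochore, measured 17.4, 17.4 and 14.2 CPM untreated, 2.42, 1.94 and 2.72 with LPS and 19.1, 21.4 and 21.4 in SRF-KO. Its difference from control with LPS was 3.12 (SE 0.13), yet its SRF-KO libraries lay only a little above the untreated ones. Nuf2 and Spc25, its partners in the NDC80 complex, differed from control with LPS by 3.70 and 3.61. Cenpa, the histone variant that marks centromeres, differed by 3.08 (SE 0.089).

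In the chromosomal passenger complex, which corrects faulty attachments and directs cytokinesis, Incenp stood apart from its partners. Aurkb, the kinase of the complex, measured 20.5, 18.9 and 19.5 CPM untreated, 1.61, 2.35 and 3.10 with LPS and 28.0, 29.4 and 26.4 in SRF-KO. Birc5 and Cdca8, which encode survivin and borealin, fell by 2.74 and 2.37 on the log2 scale with LPS. Incenp (ENSMUSG00000024660, chr19:9872296-9899551, minus strand), the scaffold that holds and activates Aurora B, measured 67.7, 61.1 and 66.6 CPM untreated, 61.3, 56.6 and 59.5 with LPS and 159.5, 156 and 166 in SRF-KO. Its untreated and LPS-treated control libraries overlapped, and its fall was 0.14 on the log2 scale (SE 0.052, adjusted p = 0.0128). That call was lost without untreated replicate 1 (-0.11, adjusted p = 0.0543) and without LPS replicate 2 (-0.11, adjusted p = 0.0825), while scaling by library totals gave -0.69. In SRF-KO Incenp was 1.44 higher than in control with LPS (SE 0.048), with no overlap. Its share of the set's reads was 4.20% untreated, 14.3% with LPS and 5.37% in SRF-KO.

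The 10 mitotic kinesins, motors that slide, depolymerise or walk along spindle microtubules, all fell with LPS and were all higher in SRF-KO. Their medians were -3.22 and 3.94 on the log2 scale, and their summed level was 11.7% of untreated with LPS and 161% in SRF-KO. Kif11, the motor that pushes the spindle poles apart, measured 49.1, 43.9 and 44.1 CPM untreated, 3.06, 4.63 and 3.49 with LPS and 56.9, 58.6 and 60.0 in SRF-KO. Kif2c, a microtubule depolymerase of the centromere, measured 17.6, 16.4 and 15 CPM untreated, 1.37, 1.45 and 1.68 with LPS and 34.7, 35.1 and 35.6 in SRF-KO, the largest difference of the kinesins (4.53, SE 0.12). Both had 3 separate groups, with SRF-KO close above untreated for Kif11 and well above it for Kif2c. Kif4, a chromosome-bound kinesin of the X chromosome, measured 19.1, 17.5 and 16.8 CPM untreated, 5.48, 5.05 and 3.69 with LPS and 27.3, 30.3 and 27.6 in SRF-KO. It had the smallest differences of the kinesins in both comparisons (-1.93, SE 0.11, and 2.60, SE 0.11), and its exons overlap those of Pdzd11 on the opposite strand. The other mitotic kinesins, Kif15, Kif18b, Kif20b, Kif22, Kif23 and Kifc1, differed between SRF-KO and control with LPS by 3.49 (Kifc1) to 4.36 (Kif18b). The exons of Kif20a, a cytokinesis kinesin with a difference of 4.06, overlap those of Cdc23, which differed by 0.88 in the same comparison.

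**Figure D2:**
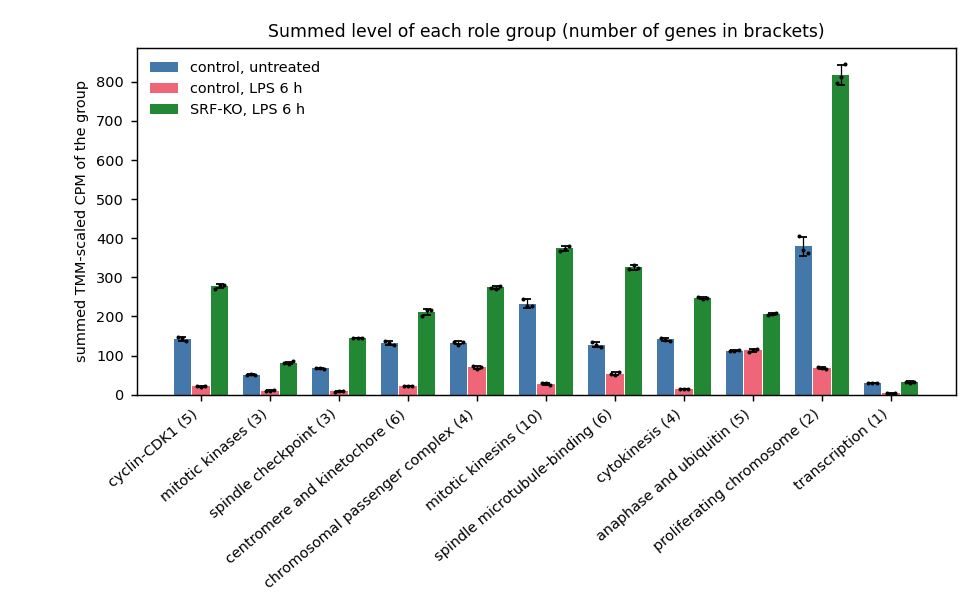
Summed TMM-scaled CPM of the genes of each role in the 3 groups. Bars start at 0 and give the mean, points the 3 libraries and error bars the SD. LPS-treated control is the lowest group in every role except anaphase and ubiquitin, where Pttg1 holds the control sum with LPS at 101% of untreated.

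Spindle microtubule-binding genes held both the largest and some of the smallest changes. Aspm, a spindle pole protein known from microcephaly, measured 17.3, 15.1 and 16.01 CPM untreated, 0.806, 0.691 and 0.711 with LPS and 27.6, 27.9 and 26.5 in SRF-KO. It had the lowest log2 fold change of the set with LPS (-4.45, SE 0.16) and the highest in SRF-KO against control with LPS (5.21, SE 0.14). Tpx2 (ENSMUSG00000027469, chr2:152847964-152895321, plus strand), the activator of Aurora A, measured 44.9, 41.8 and 40.6 CPM untreated, 35.3, 36.8 and 40.3 with LPS and 85.8, 86.3 and 87.8 in SRF-KO. The control groups of Tpx2 lay next to each other without overlap, and its fall was 0.18 (SE 0.059, adjusted p = 0.00687). Without LPS replicate 1 that call was lost (-0.14, adjusted p = 0.0583), and library totals gave -0.73. Tpx2 was 1.20 higher in SRF-KO than in control with LPS (SE 0.055).

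Ckap2l (ENSMUSG00000048327, chr2:129268210-129297212, minus strand), a spindle protein named outside the rule for its place above untreated cells, measured 18.2, 17.9 and 15.3 CPM untreated, 9.19, 7.12 and 7.89 with LPS and 103, 109 and 102 in SRF-KO. It fell with LPS by only 1.10 on the log2 scale (SE 0.097) and was 3.71 higher in SRF-KO than in control with LPS (SE 0.076). Its SRF-KO libraries lay far above both control groups, which did not overlap either. Hmmr, Ckap2 and Nusap1, the other spindle-binding genes, were 4.83, 4.04 and 3.29 higher in SRF-KO than in control with LPS.

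The cytokinesis genes had the lowest summed level with LPS relative to untreated of all roles, at 10.3%. Prc1, which bundles the microtubules of the central spindle, measured 45.6, 43.7 and 42.9 CPM untreated, 3.87, 4.98 and 5.69 with LPS and 99.5, 99.2 and 94.3 in SRF-KO. Anln, which encodes the actin-binding ring protein anillin, measured 32.7, 32.7 and 33.1 CPM untreated, 1.53, 1.87 and 1.94 with LPS and 55.4, 55.7 and 58.8 in SRF-KO. In both genes each group formed its own range, with SRF-KO highest. The differences between SRF-KO and control with LPS were 4.31 (SE 0.080) for Prc1 and 4.97 (SE 0.10) for Anln. Ect2 and Racgap1, which regulate the small GTPase of the contractile ring, differed by 3.63 (SE 0.11) and 3.54 (SE 0.086). Part of the exons of Prc1 overlap Rccd1 on the opposite strand.

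Anaphase and ubiquitin genes split. Cdc20, the activator of the anaphase-promoting complex, measured 15.9, 16.04 and 16.9 CPM untreated, 2.10, 1.73 and 1.62 with LPS and 37.4, 36.3 and 41.0 in SRF-KO, a difference of 4.40 (SE 0.11) from control with LPS. Pttg1 (ENSMUSG00000020415, chr11:43420250-43426251, minus strand), which encodes securin, the inhibitor of separase, measured 18.8, 17.7 and 19.6 CPM untreated, 84.9, 89.2 and 91.4 with LPS and 15.2, 16.7 and 16.6 in SRF-KO. It was high in all 3 control libraries with LPS and low in the others, and no groups overlapped. Its log2 fold change with LPS was 2.24 (SE 0.060, adjusted p = 1.92e-29). In SRF-KO it was lower than in control with LPS, with a log2 fold change of -2.45 (SE 0.060, adjusted p = 2.16e-30). Against untreated control it was lower in SRF-KO by a log2 fold change of -0.21 (adjusted p = 0.00829), a call lost without SRF-KO replicate 1 (-0.16, adjusted p = 0.0608). With library totals the 3 values were 1.70, -2.10 and -0.40. Securin's share of the set's reads went from 1.21% untreated to 21.4% with LPS and was 0.541% in SRF-KO. Espl1, which encodes separase itself, also fell with LPS, but by less than the median of the set (-1.06, SE 0.073, against -2.88). It was 1.65 higher in SRF-KO than in control with LPS (SE 0.069), where the median of the set was 3.61. Ube2c and Cdca3 were 3.52 (SE 0.086) and 3.36 (SE 0.1) higher in that comparison. Exons of Ccna2, Cdc20, Nusap1 and Ube2c also overlap counted genes on the opposite strand, which are Exosc9, Elovl1, Oip5 and Tnnc2 in that order.

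**Figure D3:**
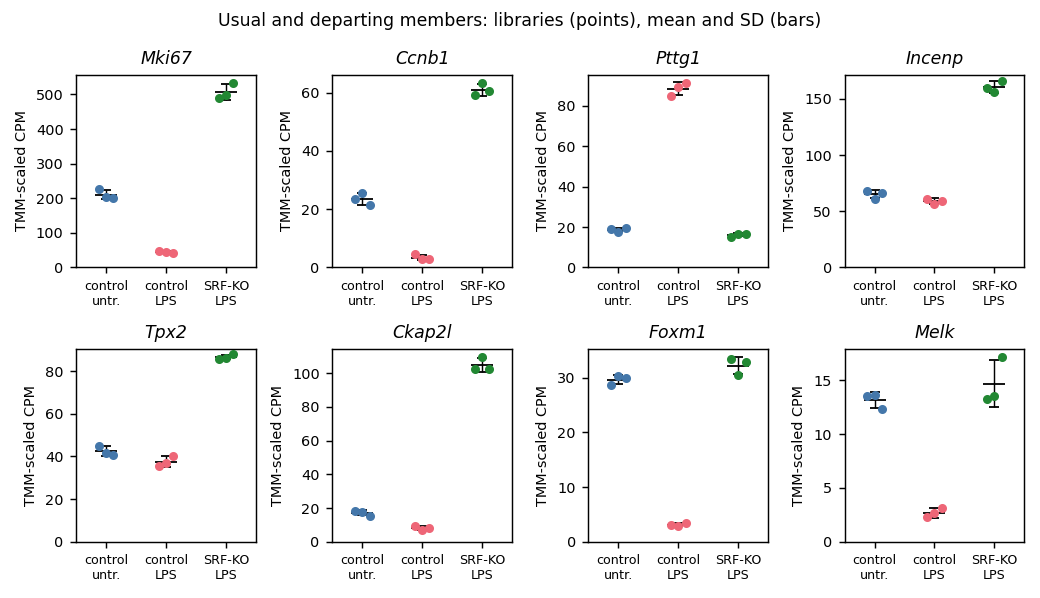
TMM-scaled CPM of 8 genes in the 3 groups, each panel starting at 0, with points for libraries and bars for the mean and SD. Mki67 and Ccnb1 show the common pattern, Pttg1 peaks in control with LPS, Incenp and Tpx2 fall by 0.14 and 0.18 on the log2 scale with LPS, Ckap2l stands far above untreated in SRF-KO, and Foxm1 and Melk lie near their untreated level there.

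Mki67, the gene of the proliferation marker Ki-67, and Top2a, the topoisomerase that untangles chromosomes, gave the most reads in untreated control and in SRF-KO. In control with LPS Pttg1 and Incenp gave more than Mki67, and Tpx2 gave more than Top2a. Mki67 measured 225, 205 and 199.96 CPM untreated, 48.1, 44.3 and 40.4 with LPS and 490.3, 498 and 533 in SRF-KO. Top2a measured 181, 166 and 161 CPM untreated, 22.2, 25.1 and 24.6 with LPS and 307, 313 and 312 in SRF-KO. All 3 groups were separate in both genes. SRF-KO exceeded control with LPS by 3.52 (SE 0.054) for Mki67 and by 3.69 (SE 0.054) for Top2a. Foxm1, a transcription factor of G2 and M phase genes, measured 28.7, 30.3 and 30.0 CPM untreated, 3.06, 2.90 and 3.43 with LPS and 33.3, 30.5 and 32.8 in SRF-KO. Its difference from control with LPS was 3.35 (SE 0.10), and its SRF-KO libraries lay just above the untreated ones. Foxm1 shares part of its exons with Tex52 on the same strand.

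Levels of different genes can be compared only per exon length. In CPM per kilobase, Mki67 was the highest of the set in untreated control (20.9) and in SRF-KO with LPS (50.4). In control with LPS the highest level was that of Pttg1 (44.2 per kilobase), followed by Incenp (13.7) and Tpx2 (8.01), with Mki67 at 4.40.

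SRF-KO cells given LPS were also set against untreated control cells, a comparison in which both genotype and treatment differ. Of the 49 genes 46 were higher in SRF-KO, 1 was lower (Pttg1) and 2 did not pass (Foxm1 and Melk). In this comparison 79.5% of all tested genes passed, 39.4% as higher and 40.1% as lower. At least 2-fold higher were 16 of the 49, against 13.4% of all tested genes, and the median log2 fold change was 0.76, against -0.01 over all tested genes. Libraries did not overlap for 48 of the 49, against 79.5% of all tested genes, and Melk was the exception. Leaving Pttg1 out, the mean level in SRF-KO was between 109% and 613% of untreated, with a median of 171%.

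The genes were not raised evenly above untreated. Ckap2l led with a log2 fold change of 2.61 (SE 0.061), ahead of Ube2c (1.70, SE 0.063), the ubiquitin-conjugating enzyme of the anaphase-promoting complex, Bub1 (1.61, SE 0.056), Ccnb2 (1.41, SE 0.069) and Ccnb1 (1.37, SE 0.064). Among the 46 genes that passed as higher, the smallest differences were those of the kinesin Kif15 (0.32, SE 0.068) and the NDC80 complex genes Nuf2 (0.30, SE 0.074), Ndc80 (0.33, SE 0.081) and Spc25 (0.35, SE 0.086). With library totals in place of TMM these 4 no longer passed, at 0.13 (adjusted p = 0.0839), 0.11 (adjusted p = 0.176), 0.14 (adjusted p = 0.116) and 0.16 (adjusted p = 0.0877) in that order. Foxm1 was at 0.12 (SE 0.061, adjusted p = 0.0801) and passed when SRF-KO replicate 2 was left out (0.15, adjusted p = 0.0379). Melk was at 0.14 (SE 0.093, adjusted p = 0.165), and with library totals the values of Foxm1 and Melk were -0.08 and -0.05. Ckap2l, Ube2c, Ccnb2, Kif15, Nuf2, Spc25 and Melk were named here after their values were seen.

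**Figure D4:**
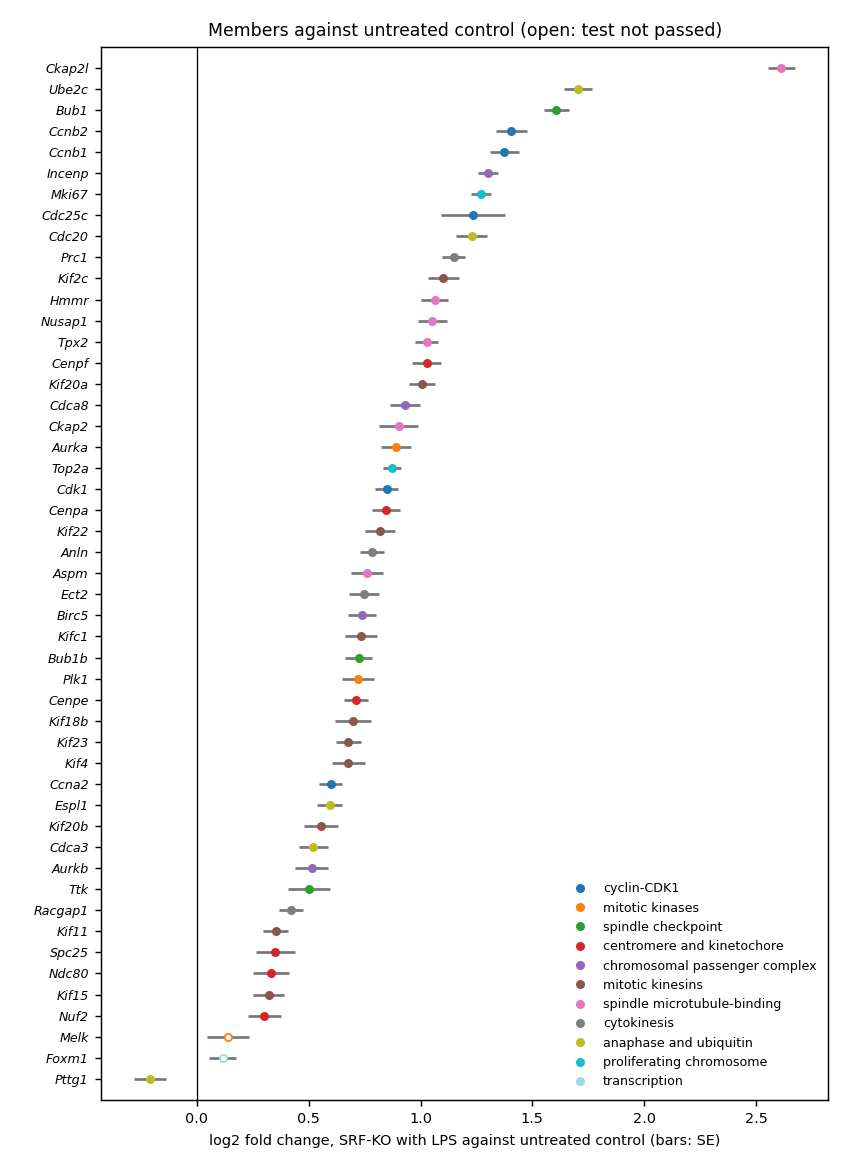
Log2 fold change of each of the 49 genes in SRF-KO with LPS against untreated control, sorted, with bars of 1 SE and colours for the role. Filled points passed the test. Ckap2l lies highest at 2.61, Pttg1 is below 0, and the open points of Foxm1 and Melk lie close to 0.

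Other genes of cell division were counted from lists kept apart from the 49. The counts of each list are read beside those of all tested genes. Of these, 40.8% fell and 40.8% rose with LPS, and 39.1% were higher and 37.9% lower in SRF-KO than in control with LPS. Among 30 other kinetochore and centromere genes, 25 fell and 2 rose with LPS (median log2 fold change -1.82), and 29 were higher and 1 lower in SRF-KO than in control with LPS (median 2.22). Knl1, the kinetochore scaffold that binds BUB1, went from 16.05 ± 1.65 CPM untreated to 1.62 ± 0.250 with LPS and 27.4 ± 2.73 in SRF-KO (SD, n = 3). Knstrn, a spindle and kinetochore adaptor, went from 15.7 ± 0.730 to 2.97 ± 0.241 and 33.1 ± 3.12 CPM (SD, n = 3). Of 29 other mitotic regulators 27 fell with LPS (median -2.67) and 29 were higher in SRF-KO (median 2.96), among them Cdc25b, a phosphatase of mitotic entry, and Tacc3, a spindle-stabilising protein, which were 3.44 and 2.46 higher. With library totals all 30 and all 29 of these genes fell with LPS.

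The genes of condensin, the complex that compacts chromosomes, changed in the same directions but by unequal amounts. All 8 fell with LPS (median -2.73, range -3.79 to -0.31). All 8 were higher in SRF-KO than in control with LPS (median 2.35, range 0.38 to 3.69). Against untreated control their log2 fold changes in SRF-KO ran from -1.89 to 0.87. Ncapd2 went from 63.5 ± 1.32 CPM untreated to 6.54 ± 0.331 with LPS and 75.6 ± 2.10 in SRF-KO, and Smc2 from 65.4 ± 4.28 to 13.1 ± 0.522 and 90.6 ± 2.90 (SD, n = 3). The anaphase-promoting complex, the ligase on which Cdc20 and Ube2c act, was counted next. Its list of 17 genes held core subunits and coactivators, and also Fbxo5 and Ube2s, which are neither. Of these 17 genes 7 rose and 7 fell with LPS (median -0.02), and in SRF-KO 7 were higher and 6 lower (median -0.03). Of all tested genes 40.8% rose and 40.8% fell with LPS, and 39.1% were higher and 37.9% lower in SRF-KO, so these counts lie near the background. Fbxo5, an inhibitor of the complex, fell by 3.02 with LPS and was 2.40 higher in SRF-KO. With library totals 13 of these 17 fell with LPS and 13 were higher in SRF-KO.

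Kinesins outside the spindle were counted in the same way. Of 26 kinesins of interphase and transport 21 were tested, of which 7 rose and 13 fell with LPS (median -0.45), and 6 were higher and 9 lower in SRF-KO than in control with LPS (median -0.07). Of all tested genes 39.1% were higher and 37.9% lower in SRF-KO, and with LPS 40.8% rose and 40.8% fell. Whether these kinesins depart from those shares was not tested. With library totals the SRF-KO counts were 13 higher and 5 lower. Kif21b went from 128 ± 3.83 CPM untreated to 42.6 ± 4.59 with LPS and 119 ± 1.82 in SRF-KO (SD, n = 3). Kif3c did the reverse, at 16.7 ± 0.287, 57.3 ± 2.40 and 22.02 ± 1.01 CPM (SD, n = 3). The difference between these lists and the 49 genes was not tested.

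**Figure D5:**
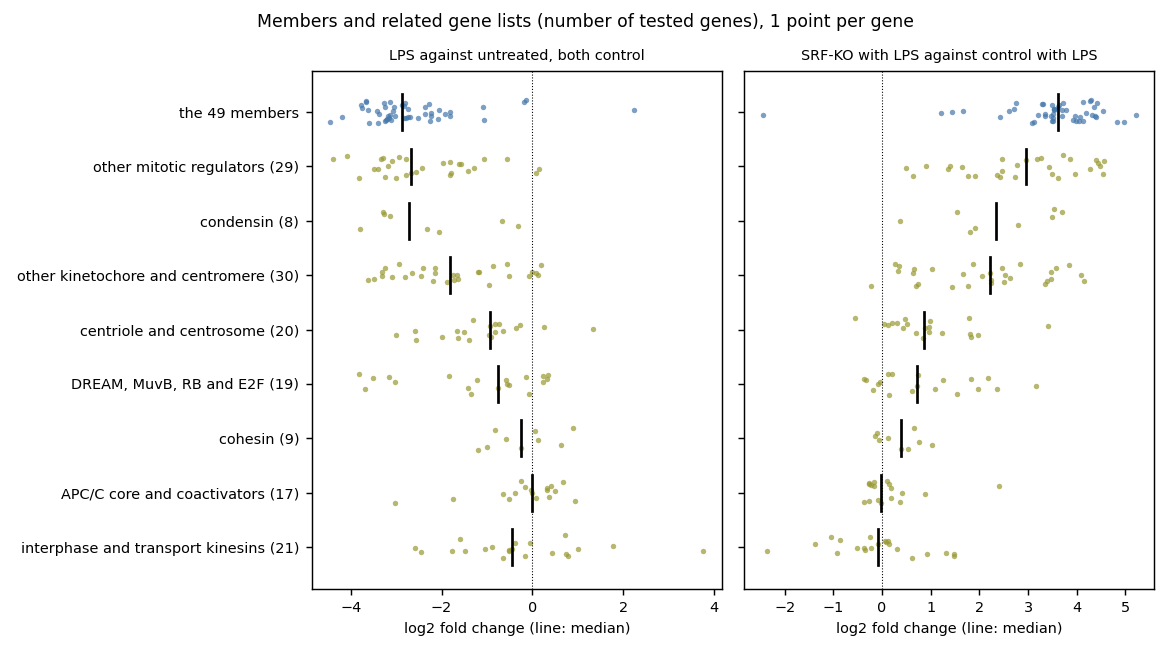
Log2 fold changes of the 49 genes and of 8 related lists, 1 point per tested gene, with a line at the median, for LPS against untreated control at the left and SRF-KO against control with LPS at the right. With LPS the medians run from -2.88 in the 49 genes to -0.02 in the list of the anaphase-promoting complex. In SRF-KO they run from 3.61 in the 49 genes to -0.07 in the interphase and transport kinesins.

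Regulators of the cell cycle promoters themselves were counted last. Of 19 genes of the DREAM and MuvB complexes, the RB family and the E2F factors, 14 fell and 4 rose with LPS (median -0.75), and 13 were higher and 2 lower in SRF-KO than in control with LPS (median 0.71). Of all tested genes 40.8% fell and 40.8% rose with LPS, and 39.1% were higher and 37.9% lower in SRF-KO than in control with LPS. Against untreated control 1 of the 19 was higher and 12 were lower in SRF-KO (median -0.29), against 39.4% and 40.1% of all tested genes. In that comparison 46 of the 49 mitotic genes were higher and 1 lower. Higher and lower were also 20 and 5 of the 29 other mitotic regulators, and 20 and 5 of the 30 other kinetochore and centromere genes. For the 8 condensin genes the counts were 5 and 2. With library totals these lists gave 17 and 5, 14 and 6, and 3 and 3 in that order. E2f2, an activating E2F, went from 36.8 ± 3.73 CPM untreated to 2.85 ± 0.343 with LPS and 14.8 ± 0.842 in SRF-KO (SD, n = 3). E2f7, a repressing E2F, measured 10.7 ± 0.863, 0.754 ± 0.0260 and 6.81 ± 0.351 CPM (SD, n = 3). In SRF-KO with LPS they lay below untreated control, with log2 fold changes of -1.32 (SE 0.075) and -0.66 (SE 0.10). With library totals 18 of the 19 fell and 0 rose with LPS, 16 were higher in SRF-KO than in control with LPS, and 15 were lower than in untreated control.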

How the data were processed

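The library protocol was stranded TruSeq, per the labels. The deposited files hold whole-number read counts per Ensembl gene for each library. Per the submitters' processing notes the tools included STAR 2.5.4b, featureCounts, Trimmomatic, bcl2fastq 2.19 and edgeR, on the build GRCm38. The strand setting and annotation release were not given in the sources used here, so overlapping genes could not be separated with certainty. Symbols, exon lengths and coordinates came from GENCODE M21 (GRCm38), which matched 22214 of 22524 identifiers.

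Groups came from the sample titles. Counts were filtered with filterByExpr, scaled by TMM and fitted together for all 9 libraries in edgeR 4.0.16 (R 4.3.3) with its quasi-likelihood test, group being the only term. The threshold was an adjusted p (Benjamini-Hochberg over 11560 genes) below 0.05. TMM factors were 1.18 to 1.19 in untreated control, 0.810 to 0.814 in control with LPS and 1.04 in SRF-KO, and TMM assumes that most genes do not change, while most passed here. Under library totals the all-gene medians moved to -0.57, 0.37 and -0.20 in the 3 comparisons in the order of the report, and genes higher among those passing from 50% to 23.7%, from 50.8% to 74.4% and from 49.5% to 36.3%. Alternatives were DESeq2 1.42.0, its size factors, library totals, no filter, only the compared groups, a replicate block and leaving out each library.

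Replicates of a group differed by more than sampling noise, with a chi-square per degree of freedom of 1.75 to 3.95, and were counted separately. On simulated counts 75%, 69% and 63% of genes changed 1.25-fold and 98%, 100% and 100% of genes changed 2-fold were recovered in the 3 comparisons (11060, 11006 and 11139 genes), with 9, 11 and 21 unchanged genes called.

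The genes of the set and the related lists were chosen with earlier results of these data known. Genes with values in every library were, in each role, the one with the highest mean level and the one with the largest difference between SRF-KO and control with LPS, then Mki67, Ccnb1, Cdk1, Aurkb, Plk1, Kif11, Kif4, Ndc80 and Foxm1 and any gene of opposite direction. Of each list up to 2 genes with the smallest p in that comparison were named, and Srf.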

Additional observations from a re-analysis of the deposited data

How the results depend on the processing

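None of the alternatives moved a count of passing genes, both directions together, by more than 1.5 times, over all genes or in the set, or turned the direction of a called gene of the set. Split by direction, library totals in place of TMM moved the counts over all genes from 4722 higher and 4721 lower to 2428 and 7835 with LPS, from 4521 and 4384 to 7059 and 2434 in SRF-KO against control with LPS, and from 4554 and 4638 to 3448 and 6042 against untreated control. They also moved the counts of the anaphase-promoting complex, the other kinesins and cohesin given with those lists. With library totals the median log2 fold change of the 49 genes was -3.43 with LPS, 3.96 in SRF-KO against control with LPS and 0.57 against untreated control, where 42 were higher and 1 lower. Leaving out each library in turn gave medians of -2.96 to -2.84, 3.58 to 3.66 and 0.76 to 0.78, and 48 to 49, 49 and 46 to 48 passing genes of the set. Over all genes it gave 9156 to 9531, 8548 to 9019 and 8921 to 9268 passing genes. Libraries with the same replicate number did not deviate together (correlations of -0.07 to 0.10). Such correlations cannot show whether libraries of the same number share an animal or culture, which the labels do not give. With the replicate block 9467, 8919 and 9231 of all genes passed, and 49, 49 and 47 of the set, with medians of -2.88, 3.61 and 0.76. DESeq2 called 49, 49 and 47 of the set. The cause of the calls lost by single genes was not tested. Genes below 1 CPM with LPS, such as Cdc25c, Aspm and Ttk, rest on the fewest reads, which limits the precision of their fold changes.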

Other observations

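Cohesin, the ring that holds sister chromatids and is cut by separase, was counted in the same way. Of its 9 genes 5 fell and 3 rose with LPS (median log2 fold change -0.26), where 40.8% of all tested genes changed in each direction. In SRF-KO 6 were higher and 1 lower than in control with LPS (median 0.38), where 39.1% of all tested genes were higher and 37.9% lower. Whether cohesin departs from those shares was not tested. With library totals 7 fell and 1 rose with LPS, and 9 were higher in SRF-KO. Rad21, the subunit that separase cleaves, measured 107 ± 4.31 CPM untreated, 89.1 ± 4.93 with LPS and 149.9 ± 4.91 in SRF-KO, and Smc3 measured 53.3 ± 4.20, 23.2 ± 3.31 and 47.6 ± 2.12 CPM (SD, n = 3).

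Of 20 centriole and centrosome genes 18 fell and 2 rose with LPS (median -0.94), and 17 were higher and 1 lower in SRF-KO than in control with LPS (median 0.86). Of all tested genes 40.8% fell and 40.8% rose with LPS, and 39.1% were higher and 37.9% lower in SRF-KO than in control with LPS. Against untreated control 4 of the 20 were higher and 9 lower in SRF-KO (median -0.11), where 39.4% of all tested genes were higher and 40.1% lower. With library totals 3 were higher and 13 lower than in untreated control. Stil, which builds new centrioles, measured 15.7 ± 0.672 CPM untreated, 2.57 ± 0.423 with LPS and 27.5 ± 0.883 in SRF-KO, and Plk4, the kinase of centriole duplication, 18.7 ± 0.690, 7.02 ± 1.43 and 27.9 ± 0.271 CPM (SD, n = 3).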
